A study of Homo sapiens with 30 samples.

Results

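The genes described here are the olfactory receptor genes of human chromosomes 1 and 11. They were chosen by symbol, as every gene named OR, a family number, subfamily letters and a member number, whose annotated features all lay on chromosome 1 or all on chromosome 11. The rule found 228 of the 27630 genes in the deposited tables, 58 on chromosome 1 and 170 on chromosome 11. Another 165 genes of the same name pattern lay on other chromosomes or on several, and 21 receptor pseudogenes carried the pattern followed by P. No measured value entered the choice.

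Olfactory receptors are G protein-coupled receptors that bind odorants at the cilia of olfactory sensory neurons. Each such neuron expresses 1 receptor allele and keeps the others silent, and the genes sit in long tandem clusters that are heterochromatic in other tissues. Class I receptors (families 51, 52 and 56 here) are the fish-like type and occupy 1 cluster, while class II receptors make up the other families. Most receptor genes have their whole reading frame in 1 exon. The cells studied here derive from kidney and colon, and the receptors' counts were taken as a measure of the background that silent genes collect.

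The RNA data are 8 libraries from HEK293FT cells, a line from human embryonic kidney, as 4 groups of 2 asynchronous samples: a nuclear fraction, a cytosolic fraction, a native lamina preparation and a lamina preparation fixed with paraformaldehyde (PFA). All cells carried a transfected fusion of lamin B1 and APEX2, a peroxidase that tags molecules next to it, per the labels' protocols. The labels name no untransfected or unlabelled sample, so the lamina preparations could be set only against the fractions. Lamina-associated domains, the stretches of chromatin that touch the nuclear lamina, came as 1 consensus list each for G1, S and G2 of HCT116 cells, which derive from a human colorectal cancer. They rest on 12 DNA samples, pulled-down or input. RNA and domains thus come from different cell lines, and the domain lists carry no replicate spread. Nothing in the labels says that the 2 samples of a group came from separate cultures, so p-values measure the spread between these samples, which may be technical.

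Total counts ran from 2321291 to 8557777 per library. LMNB1, the gene carried by the fusion, took 0.304% to 0.520% of counts in the 4 fraction libraries and 2.96% to 9.49% in the 4 lamina libraries. The PFA replicates stood apart from each other. Over all genes their log2 CPM (counts scaled to depth) correlated at 0.911, below the 0.960 to 0.968 of the other replicate pairs, and replicate 1 correlated at 0.957 and 0.951 with the cytosolic libraries against 0.894 and 0.892 for replicate 2. Genes are not independent replicates, so these correlations are descriptions. The receptors' PFA counts are therefore given per replicate, while fold changes and calls use both. Of HEK293 markers, NEFL, NEFM, INA and PAX2 all had counts. Of 8 olfactory sensory neuron markers 5 had more than 3 counts in a library. In the nuclear fraction ADCY3 stood at 154 CPM, GNAL at 24.1, GNG13 at 7.22, OMP at 1.46 and CNGB1 at 0.584, while CNGA2 had no count, RTP1 had 1 count and STOML3 had 4 counts over all libraries.

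Sequences from a promoter table show the DNA that precedes the annotated start of a few receptors. Of the 228 genes, 177 had an entry in the RefSeq promoter table (GRCh38.p14), from which the 250 bases before the annotated start were read. In 75 of these the annotated start was the start codon itself. The stretch is then upstream of the coding sequence and need not hold the start of transcription. This was so for every receptor printed here. Printed here are OR52W1 (chr11:6198974-6199223, plus strand) and OR2D3 (chr11:6920752-6921001, plus strand), which had the most counts, and OR2W3 (chr1:247895337-247895586, plus strand) and OR4C15 (chr11:55554219-55554468, plus strand), which lay inside lamina-associated domains in all 3 stages. Capitals mark TATAAA (the TATA box), TAATTA (a core bound by homeodomain factors such as LHX2) and CCCNNGGG (a core bound by EBF factors), searched on both strands.
OR52W1: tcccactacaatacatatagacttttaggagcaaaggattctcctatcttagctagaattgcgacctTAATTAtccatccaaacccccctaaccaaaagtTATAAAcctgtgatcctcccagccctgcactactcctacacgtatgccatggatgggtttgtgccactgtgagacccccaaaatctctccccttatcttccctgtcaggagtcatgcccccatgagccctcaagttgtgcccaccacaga
OR2D3: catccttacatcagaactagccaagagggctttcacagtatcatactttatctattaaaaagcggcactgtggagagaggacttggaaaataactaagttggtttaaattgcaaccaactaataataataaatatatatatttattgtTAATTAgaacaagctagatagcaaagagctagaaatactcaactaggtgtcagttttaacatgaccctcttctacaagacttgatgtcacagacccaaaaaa
OR2W3: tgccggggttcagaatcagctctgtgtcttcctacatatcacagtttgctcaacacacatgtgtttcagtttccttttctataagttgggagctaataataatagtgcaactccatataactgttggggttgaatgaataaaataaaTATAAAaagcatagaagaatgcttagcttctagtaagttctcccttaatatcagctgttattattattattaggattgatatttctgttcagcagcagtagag
OR4C15: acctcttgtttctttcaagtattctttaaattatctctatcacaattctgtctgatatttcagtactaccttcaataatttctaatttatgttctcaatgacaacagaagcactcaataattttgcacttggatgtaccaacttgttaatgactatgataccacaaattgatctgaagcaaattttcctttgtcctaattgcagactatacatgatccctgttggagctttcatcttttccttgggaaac

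OR52W1 held TAATTA and TATAAA once each, OR2D3 held TAATTA once and OR2W3 held TATAAA once, while none of the 3 motifs was in the OR4C15 window. The receptors' promoters were poor in G and C, with a median GC content of 36.8% (22.8% to 65.6%) against 61.2% over all 17267 promoters of genes in the tables. They held a median of 1 CpG, against 16 over all promoters. TATAAA was found in 34.5% of the receptor promoters and in 9.34% of all promoters, TAATTA in 22.6% and 3.54%, and CCCNNGGG in 8.47% and 18.8%. These shares were not matched for GC content, which differed between the sets as given above. The annotated start was also the start codon more often among the receptors than among all promoters. The part of either difference in the motif shares was not tested. A match is only a match of letters and not evidence of a bound factor. Receptors inside domains in all 3 stages had a median GC content of 35.0% (92 promoters) and those outside in all 3 had 39.8% (84 promoters), so both lay below the median of all promoters.

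The first question was where the receptor clusters lay relative to the lamina. A gene counted as inside when all of its annotated span (hg19) fell within 1 domain. By this rule 113 of 228 receptor genes (49.6%) were inside in G1, 113 in S and 112 (49.1%) in G2. Over all 27264 genes placed on 1 chromosome the shares were 6.73%, 5.92% and 8.26%. The receptors split almost evenly and kept their place through the cell cycle, with 111 inside in all 3 stages, 114 outside in all 3 and 3 that differed between stages.

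The share inside was higher on chromosome 1 than on chromosome 11. On chromosome 1, 53, 54 and 54 of 58 receptors were inside in G1, S and G2, against 5.52%, 5.22% and 6.34% of all genes of that chromosome. On chromosome 11 the counts were 60, 59 and 58 of 170, against 7.4%, 8% and 9.22% of all genes there. Genes of chromosome 11 that were no such receptor were inside in 4.19%, 4.94% and 6.36% of cases. Receptors made up 60 of the 122 chromosome 11 genes inside a G1 domain (49.2%), and 35.6% of the chromosome 1 genes inside one. Neighbouring receptors share a domain and are not independent observations, so these shares carry no test.

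Neighbouring receptors mostly shared their place. Receptors were joined into a run when no more than 500 kb separated neighbours, which gave 13 runs with 226 genes and left OR4F5 and OR2AT4 alone. In 5 runs every member was inside in all 3 stages, in 6 runs no member was inside in any stage, and 2 runs changed between stages. Among the 9 runs of 5 or more genes, 4 were wholly inside and the others wholly outside, so no large run was split. The ends of the domains around runs fell on multiples of 100 kb, while neighbouring receptors often lay closer than that. Neighbours within the same step could not be placed apart, and edge distances are no finer than this step.

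**Figure D1:**
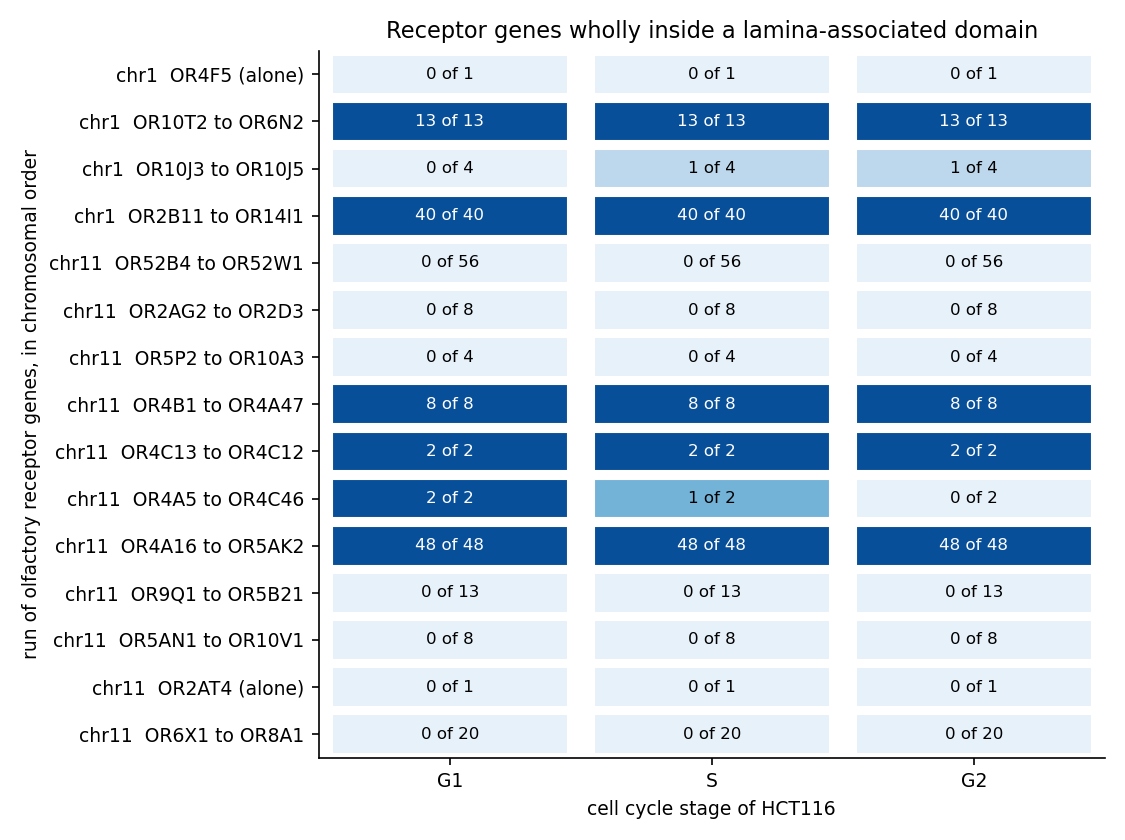
Receptor genes wholly inside a lamina-associated domain of HCT116, by run (rows, in chromosomal order, named by the first and last gene) and by cell cycle stage (columns). Each cell gives the genes inside of the genes in the run, and darker blue is a larger share: every run of 5 or more genes is either wholly inside or wholly outside in all 3 stages.

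On chromosome 1 the largest run, 40 class II genes from OR2B11 to OR14I1 (chr1:247614331-248845605), lay inside a domain with the same ends in G1, S and G2, from 247600001 to 249100000. Its 1.23 Mb thus filled most of that 1.5 Mb domain, which reaches nearly to the end of the long arm. The 13 genes from OR10T2 to OR6N2 (chr1:158368312-158747425), of families 6 and 10, were also inside in all 3 stages. OR10J3 (chr1:159283460-159284449), 1 of the 4 genes of the next run, lay 83.5 kb outside the nearest domain in G1 and 15.6 kb inside the edge of one in S and G2. That domain ended at 159200000 in G1 and at 159300000 in S and G2. The other 3 of that run, up to OR10J5, were outside throughout.

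Chromosome 11 held both kinds of run. The 56 class I genes from OR52B4 to OR52W1 (chr11:4388493-6221416) were all outside, and in G1 the nearest domain began 14479 kb away. The neighbouring 8 class II genes from OR2AG2 to OR2D3 (chr11:6789238-6943225) were also outside, as were the 4 from OR5P2 to OR10A3. Near the centromere, the 8 genes from OR4B1 to OR4A47 (chr11:48238362-48511274) and the 48 genes from OR4A16 to OR5AK2 (chr11:55110677-56757318) were all inside in every stage. The domain around the 48 genes was 2.2 Mb long in G1, and it was 2.4 Mb in S phase and 2.3 Mb in G2. The next 13 genes, OR9Q1 to OR5B21 (chr11:57791353-58275578), were all outside and lay 991 kb from a domain in G1. The 8 genes from OR5AN1 to OR10V1 (chr11:59131932-59481318) and the 20 genes from OR6X1 to OR8A1 (chr11:123624288-124440945) were outside as well. OR4A5 and OR4C46, a pair next to the centromere, were inside in G1, with OR4A5 alone inside in S and neither in G2.

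Class and family followed the clusters. None of the 56 class I genes was inside in any stage, and all 56 form 1 run, so this is a single observation. Of 172 class II genes 111 were inside in all 3 stages. Family 2 had 33 of 38 genes inside, family 5 had 25 of 35 and family 4 had 18 of 26, while family 8 had 11 inside and 11 outside and family 10 had 7 of 24 inside. The 111 genes inside throughout lay well within their domains, at a median of 512 kb (14.3 to 1096 kb) from the nearer edge in G1. Of 148 receptors placed on 1 other chromosome, 18 were inside in G1, 3 in S and 22 in G2.

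The second question was how much RNA signal the receptors had. Most had none: 186 of 228 (81.6%) had no count in any of the 8 libraries. The counting command had no option for reads that map to several places, so a near-identical receptor without counts need not lack RNA. Of the receptors 42 (18.4%) had at least 1 count, against 85.6% of all 27630 genes (86.2% of genes outside the set), and 5 (2.19%) had more than 3 counts in some library, against 71.3% of all genes. The highest count of a receptor in a library was 6. The receptors are short, with a median exonic length of 951 bases. Of 1392 other genes of similar length, between the 5% and 95% quantiles of the receptors, 79.9% had a count. A count of 3 was taken as the floor, below which a value cannot be told from none, and it equals 0.351 to 1.29 CPM depending on depth. Over all libraries together 3 counts equal 0.0612 CPM. Intervals and floors cover counting error only, since no molecular identifiers are named and reads may repeat a molecule.

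The receptors' counts were few but unevenly placed among the RNA groups. All receptors together had 52 and 26 nuclear counts, 3 and 2 cytosolic counts, 20 and 8 counts in the native preparation and 3 and 15 in the PFA preparation. Both nuclear libraries lay above both native libraries, and all 4 of these lay above both cytosolic libraries. In CPM of total counts the nuclear libraries had 7.98 (95% exact Poisson interval 5.96 to 10.5) and 3.87 (2.53 to 5.68), so even the 2 nuclear replicates differed beyond counting error. The cytosolic libraries had 0.412 (0.0850 to 1.20) and 0.345 (0.0417 to 1.25). The native lamina had 2.34 (1.43 to 3.61) and 1.33 (0.576 to 2.63). The PFA replicates were far apart, at 0.512 (0.106 to 1.50) and 6.46 (3.62 to 10.7), the first close to the cytosolic values and the second between the nuclear ones.

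After TMM scaling (a correction for library composition), the summed level was 6.27 ± 2.56 CPM in the nuclear fraction (SD, n = 2) and 0.411 ± 0.0154 in the cytosolic fraction. It was 1.63 ± 0.635 for the native lamina and 3.03 ± 3.50 for the PFA lamina. The PFA mean was 5.51 without replicate 1 and 0.553 without replicate 2. Without that scaling, nuclear CPM were 15.4 times the cytosolic (interval from counting error 6.34 to 48.8), and native lamina CPM were 0.326 times the nuclear (0.204 to 0.508) and 5.04 times the cytosolic (1.92 to 16.7). The lamina preparations share the fractions as controls, so their ratios are not separate evidence. These sums run over genes picked as a family and were given no p-value.

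The same order held for receptors that the rule left out. The 165 receptor genes elsewhere had 164 and 97 nuclear counts, 11 and 2 cytosolic, 56 and 33 native lamina and 25 and 28 PFA lamina counts, which put nuclear at 19.9 times cytosolic (11.4 to 37.8). The 21 pseudogenes had 186 and 151, 29 and 11, 71 and 63, and 8 and 23 counts in the same order, of which OR7E12P alone held 372 of 542. In both sets, too, the nuclear libraries lay above the native and these above the cytosolic ones.

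Per kb of exon the receptors lay far below other genes. Their density in the nuclear fraction was 0.0253 ± 0.0124 CPM per kb (SD, n = 2), against 11.7 over all genes. At the native lamina it was 0.00785 ± 0.00303 and in the cytosol 0.00162 ± 2.04e-04. The 1297 genes that were no receptor but lay inside domains in all 3 stages had 0.935 to 1.54 across the 8 libraries, and 547 of them (42.2%) had a count. The 37 other genes that lie within the bounds of the receptor runs had 1.66 to 3.23, and 17 of them had a count. Of their 10206 counts, 7640 lay in the 3 such genes within the run from OR5AN1 to OR10V1. OSBP alone held 4662 of the 10206. Receptors on other chromosomes were at 0.0833 and 0.0478 in the nuclear libraries, and the pseudogenes at 1.03 and 0.814. In every library the 1297 genes inside domains and the 37 within the runs, none of them such receptors, had a higher density than the receptors.

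**Figure D2:**
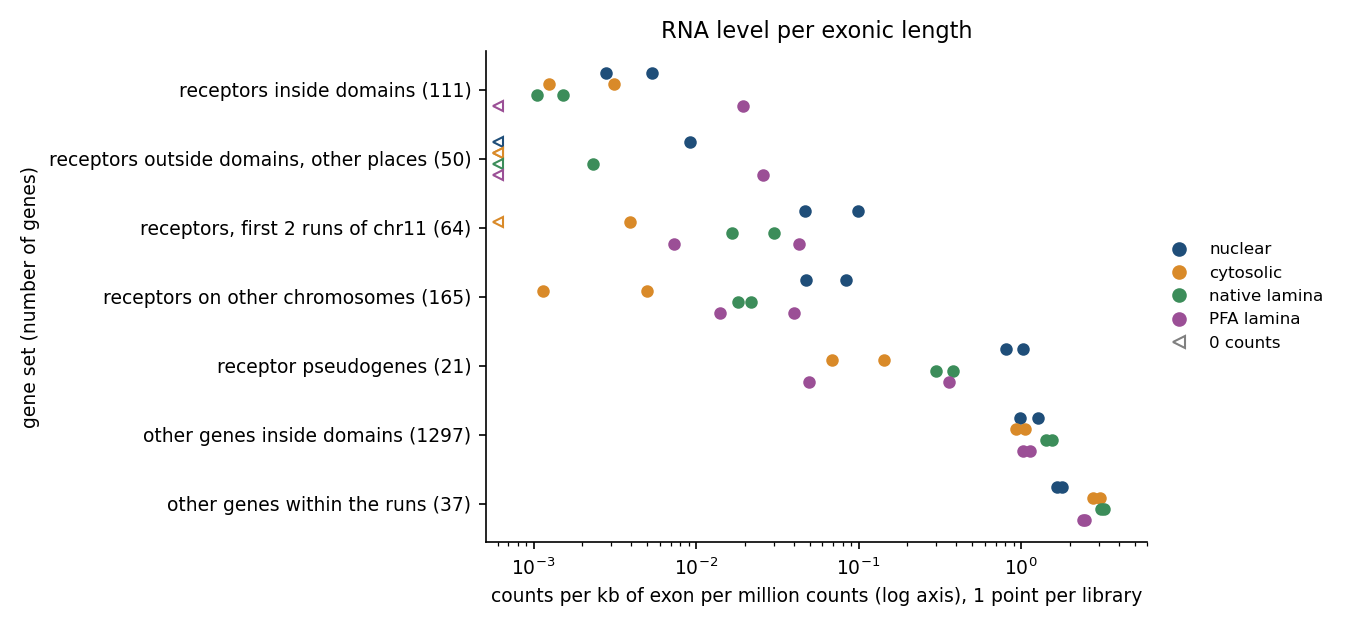
RNA level per exonic length (CPM of total counts per kb of exon, log axis) for 7 gene sets, 1 point per library coloured by group; open triangles at the left edge stand for libraries with 0 counts. Other genes inside domains lie between 0.935 and 1.54, to the right of every point of the 4 receptor sets (pseudogenes overlap them).

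No receptor gene of either chromosome entered the test of differences between groups. The filter on low counts (filterByExpr) kept 16504 genes and 0 of the 228 receptors, so edgeR's quasi-likelihood test gave 0 calls and no p-value for them in any of the 6 contrasts. Of all genes in that test, nuclear against cytosolic called 26.1% higher and 21.2% lower. Native lamina against nuclear called 3.87% higher and 3.44% lower, native against cytosolic 6.99% and 6.77%, PFA against nuclear 9.63% and 7.81%, PFA against cytosolic 0.527% and 0.145%, and PFA against native 0%. These shares depend on the libraries and the scaling: native against nuclear called 639 genes higher and 568 lower, which became 1671 and 237 with total counts, and 1 and 9 without nuclear replicate 1 or 12 and 12 without nuclear replicate 2. PFA against nuclear called 1589 and 1289, which became 1900 and 515 with total counts and 1 and 12 without nuclear replicate 1.

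With the filter removed, the 42 receptors with a count were tested among 23649 genes, and only OR52W1 passed at an adjusted p under 0.05. Nuclear against cytosolic, its log2 fold change was 5.32 (SE 2.24; adjusted p 0.0487 by edgeR), in a contrast that called 20.6% of genes higher and 15.6% lower. The fitted value depends on the prior count, since both cytosolic libraries had none. Each SE given with an edgeR value was derived as the log2 fold change over the root of the F statistic. It is not an SE that edgeR reports. The mean nuclear level of OR52W1, 0.809 CPM, was 1.57 times a floor of 3 counts per cytosolic library (0.517 CPM). That ratio leaves out the counting error of its 6 and 4 nuclear counts, so it is no lower bound. Outside nuclear against cytosolic, DESeq2's Wald test gave no receptor an adjusted p, so it could call none there. It had 0 receptors at an unadjusted p under 0.05 in any contrast. Nuclear against cytosolic, it did not call OR52W1 (adjusted p 0.112) or any other receptor. The call was also lost with total counts (adjusted p 0.0608), with the replicate number as a block (adjusted p 0.0828), and each time any of the 6 libraries other than the PFA ones was left out. OR2D3 was not called (unadjusted p 0.0381, adjusted p 0.0915 by edgeR), and it and OR52W1 were the only receptors at an unadjusted p under 0.05 between the fractions. In the other contrasts edgeR without the filter called 0 receptors. Of all genes it called 5.24% higher and 6.21% lower for native lamina against nuclear, 7.83% and 6.53% for native against cytosolic, 8.56% and 8.47% for PFA against nuclear, 4.18% and 2.27% for PFA against cytosolic, and 0.52% and 0.63% for PFA against native. At an unadjusted p under 0.05 these contrasts had OR10A4 on the lower side of native against nuclear (adjusted p 0.179), OR52W1 on the higher side of native against cytosolic (adjusted p 0.160), and 0 receptors in the 3 with PFA.

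The counts came from few genes in few places. The 10 receptors with the most counts held 82 of all 129 (63.6%), 23 receptors had exactly 1 count in all, and 28 had counts in only 1 library, of which 17 were in a nuclear library. Counts in both replicates were seen for 9 receptors in the nuclear fraction and 3 in the native preparation, and for 0 in the cytosolic or the PFA one. Of 21 receptors with a count at the lamina, 11 also had one in a nuclear library.

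By place, the first 2 runs of chromosome 11, which lie outside the domains, held 104 of 129 counts (80.6%) with 64 of 228 receptors (28.1%). These runs were singled out after their values were seen. The class I run, OR52B4 to OR52W1, had 54 counts in 16 of its 56 genes, and the run from OR2AG2 to OR2D3 had 50 counts in 7 of its 8 genes. The run from OR5P2 to OR10A3 had no count, nor did OR4B1 to OR4A47, OR4C13 to OR4C12 or OR4A5 to OR4C46. The 48 genes from OR4A16 to OR5AK2 had 5 counts in 5 genes, the 40 from OR2B11 to OR14I1 had 8, and OR9Q1 to OR5B21 had 3. The 20 genes from OR6X1 to OR8A1 had 1, in OR10G8, and those from OR5AN1 to OR10V1 had 2, in OR4D11 and OR10V1.

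**Figure D3:**
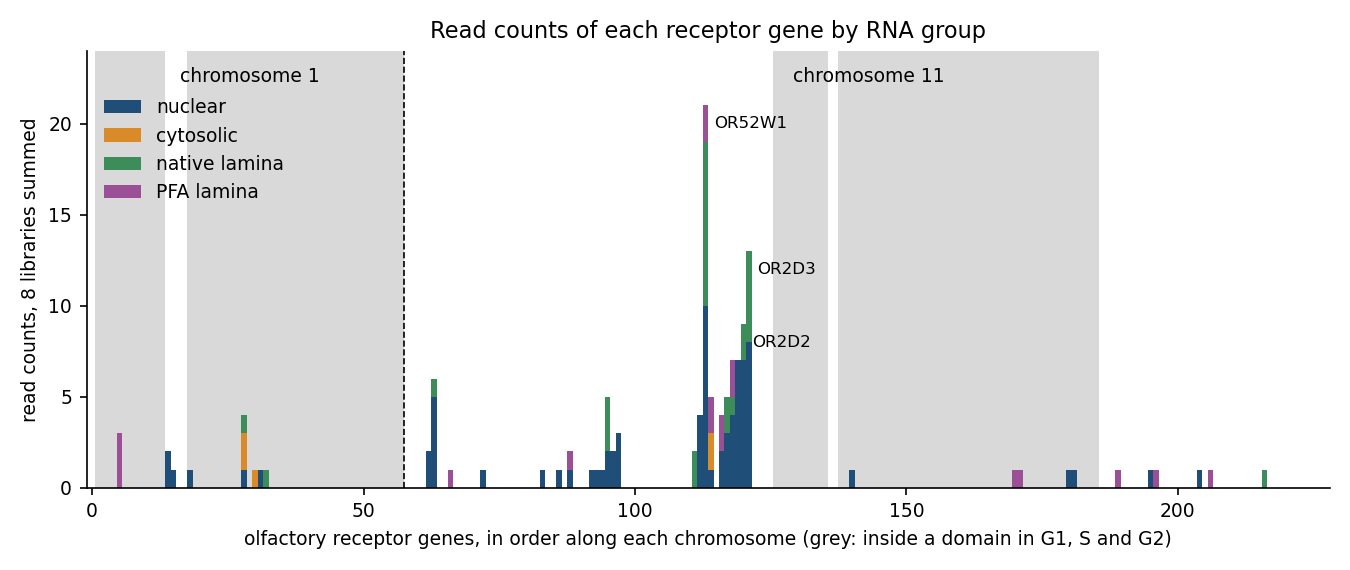
Read counts of each of the 228 receptor genes (vertical axis, 8 libraries summed, stacked by RNA group) in their order along chromosome 1 and chromosome 11 (horizontal axis, rank only). Grey bands are genes inside a domain in G1, S and G2; the tallest bars, OR52W1 with 21 counts and OR2D3 with 13, stand in the unshaded start of chromosome 11.

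Receptors inside domains in all 3 stages had 16 counts in 11 of 111 genes, and those outside in all 3 had 111 counts in 30 of 114. Inside, the nuclear libraries had 2 and 4 counts, the cytosolic 1 and 2, the native 1 and 1, and the PFA libraries 0 and 5. Outside, the nuclear libraries had 48 and 22, the cytosolic 2 and 0, the native 19 and 7, and the PFA libraries 3 and 10. The excess outside lay in the first 2 runs of chromosome 11: the other 50 receptors outside had 7 counts in 7 genes (14%), next to 9.91% of the genes inside. Nuclear against cytosolic was 34.6 times outside (9.23 to 291) and 1.98 times inside (0.422 to 12.2), so no difference between the fractions was detectable at this depth for receptors inside domains.

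**Figure D4:**
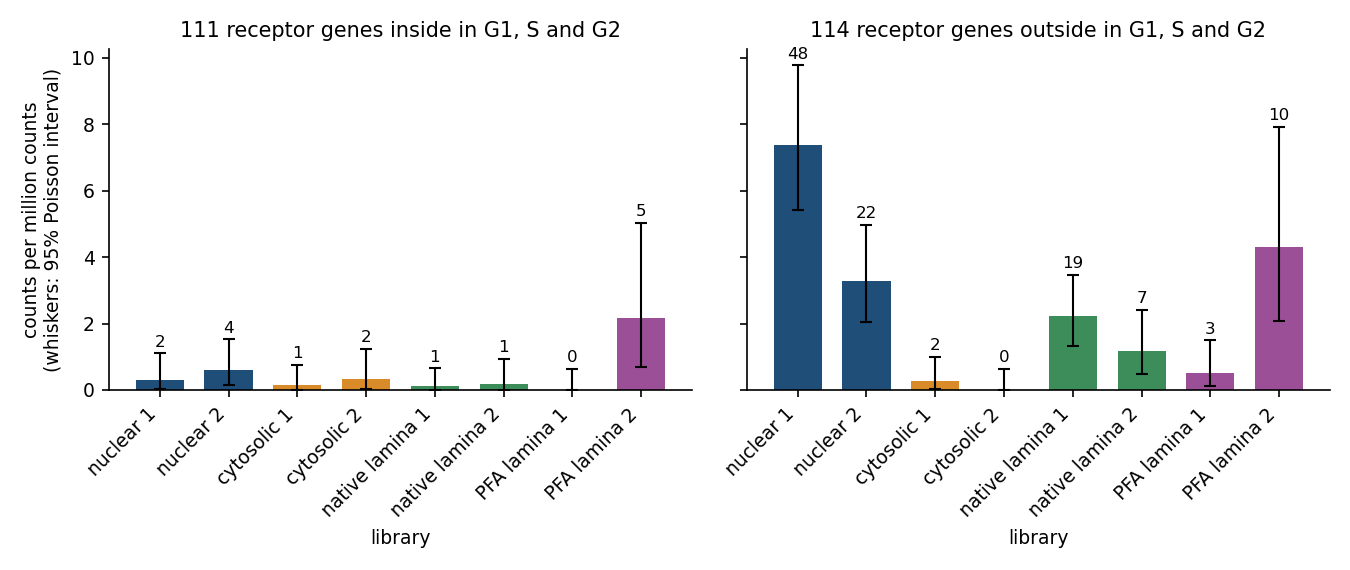
Summed receptor CPM of total counts (bars, with 95% Poisson intervals as whiskers and the counts printed above) in each of the 8 libraries, for the 111 receptors inside domains in G1, S and G2 (left) and the 114 outside in all 3 (right). The nuclear bars outside rest on 48 and 22 counts, and inside only PFA lamina replicate 2 has more than 4.

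OR52W1, a class I receptor (chr11:6220454-6221416, plus strand, hg19), had the most counts. It had 6 and 4 nuclear, 0 and 0 cytosolic, 6 and 3 native and 0 and 2 PFA counts. Both nuclear and both native libraries were above the cytosolic ones, and the nuclear and native ranges overlapped. It lies 5.38 kb upstream of C11orf42, a gene on the same strand that had 25 and 29 nuclear, 0 and 6 cytosolic, 17 and 21 native and 1 and 2 PFA counts.

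OR2D3, a class II receptor (chr11:6942233-6943225, plus strand), had 5 and 3 nuclear counts, 3 and 2 native lamina counts and none in the cytosolic or PFA libraries. It lies 4.43 kb upstream of ZNF215, a zinc finger gene on the same strand with 161 and 89 nuclear, 57 and 77 cytosolic, 172 and 121 native and 52 and 32 PFA counts. Next to it OR2D2 had 5 and 2 nuclear counts, 2 and 0 at the native lamina and none elsewhere. OR10A4 had 5 and 2 nuclear counts and none in any other library. All 3 genes thus had counts in both nuclear libraries and none in the cytosolic ones. Only in nuclear replicate 1 did they exceed the floor of 3 counts.

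OR10A2 had 2 and 2 nuclear, 1 and 0 native and 0 and 2 PFA counts. OR52I1, a class I receptor, had 4 and 1 nuclear counts and 1 and 0 at the native lamina, and it lies 3.66 kb from TRIM68, which is on the opposite strand and had 89 and 36 nuclear and 148 and 92 cytosolic counts. OR10A5 had 3 and 0 nuclear counts and 2 and 0 at the native lamina. These 3 had no cytosolic count. OR52D1 had 2 and 0 nuclear and 1 and 2 native counts. OR2AG2 departed from the rest, with 1 and 0 nuclear, 2 and 0 cytosolic and 2 and 0 PFA counts. OR52B2 had 1 and 3 nuclear counts and OR6A2 had 1 and 1, with 2 counts in PFA lamina replicate 2.

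Inside domains, OR2W3 (chr1:248058889-248059833) had the most counts, 1 in nuclear replicate 2, 2 in cytosolic replicate 2 and 1 in native lamina replicate 2. OR6Y1, the only gene of the run from OR10T2 to OR6N2 with a count, had 3, all in PFA lamina replicate 2. In the run from OR4A16 to OR5AK2 no gene had more than 1 count. OR8U1 and OR8U8, annotated on the same bases, each had 1 in PFA lamina replicate 2, which can be the same read because a read on several genes was counted for each. In all, 7 receptors share exonic bases with another gene, and without them 40 receptors had a count.

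Some receptors are known for transcripts outside the nose, and these were looked up by name. OR51E1, OR10J5 and OR5AN1 had no count in any library. OR51E2, the receptor known as PSGR in prostate, had 1 count, in PFA lamina replicate 1. OR51B4 had 1 count in nuclear replicate 1, and OR51B5 had 1 each in nuclear replicate 2 and PFA lamina replicate 2. The beta-like globin genes lie within the class I run, and HBB, HBD, HBG1, HBG2 and HBE1 had no count either.

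Receptors with a count lay nearer, by the median, to genes with nuclear RNA. The distance was taken to the nearest exon of a gene that is no receptor and had at least 1 CPM in the nuclear fraction. Its median was 113 kb for the 42 receptors with a count, 337 kb for the 186 without, and 46.1 kb for the 9 with 5 or more counts. The 3 receptors within 10 kb of such a gene, OR52W1, OR2D3 and OR52I1, all had counts and held 40 of the 129 (31.0%). Within 50 kb, 10 of 18 receptors had a count, and beyond it 32 of 210. Distance and domain placement moved together, with a median of 655 kb for receptors inside domains and 153 kb for those outside. Within the class I run alone, which is all outside, the median was 93.6 kb for the 16 with a count and 209 kb for the 40 without. Promoter GC content moved less, with medians of 40.4% for 29 receptors with a count and 36.8% for 148 without. The part of any of these in the counts was not tested.

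**Figure D5:**
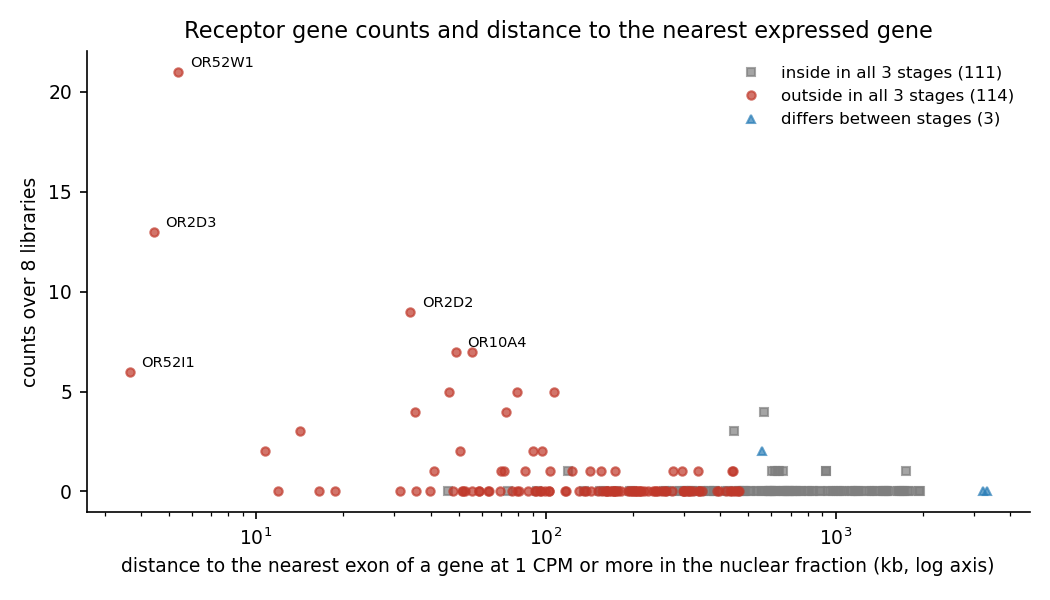
Counts of each receptor over all 8 libraries (vertical axis) against the distance in kb (log axis) to the nearest gene with at least 1 CPM in the nuclear fraction, with symbols by place in the domains. The 3 receptors within 10 kb have 6, 13 and 21 counts, and no receptor inside a domain in all 3 stages has more than 4.

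Most of the genes listed as acting with the receptors had more than 3 counts in a library, as did 71.3% of all genes. Of 34 symbols listed for olfactory signalling and receptor choice, 33 were in the table. The other, ADRBK2, is an older symbol of GRK3, which was also listed and present, so no gene was missing. Of the 33 genes, 29 had more than 3 counts in a library and 26 were tested. CNGA2, RTP1, RTP2 and STOML3 were not among the 29. Nuclear against cytosolic, 5 of the 26 were higher and 5 lower, beside 26.1% and 21.2% of all genes, with a median log2 fold change of -0.20, beside 0.13 over all genes tested. The higher ones were GNG13, a G protein gamma subunit of olfactory neurons (2.82, SE 0.76; adjusted p 0.00919 by edgeR), SLC24A4, a sodium, calcium and potassium exchanger of olfactory cilia (2.32), EIF2AK3, the kinase PERK (1.00), LBR, the lamin B receptor (0.88), and ADCY3, the adenylyl cyclase of olfactory transduction (0.81). The lower ones were the G protein subunit GNB1 (-2.32, SE 0.34; adjusted p 7.08e-04 by edgeR), the histone methyltransferase EHMT2 (-1.52), the histone demethylase KDM1A (-1.41), the arrestin ARRB2 (-1.38) and LDB1 (-0.75), a cofactor of LHX2.

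Against the nuclear fraction, the native lamina had 2 of the 26 higher and 0 lower, beside 3.87% and 3.44% of all genes, and the PFA lamina had 3 higher and 1 lower, beside 9.63% and 7.81%. Without nuclear replicate 1 these contrasts called 1 gene each higher in the whole table. In the fit of all 8 libraries, the 2 of the 26 called higher at the native lamina were GNB1 and EHMT2. Their log2 fold changes were 1.43 (adjusted p 0.0287 by edgeR) and 1.09 (0.0336). At the PFA lamina GNB1 (1.78), EHMT2 (1.08) and the methyltransferase EHMT1 (0.89) were higher and SLC24A4 (-1.90) was lower. Both comparisons use the same nuclear libraries. Against the cytosolic fraction edgeR called 0 of the 26 in either preparation, with 5 at an unadjusted p under 0.05 for the native and 2 for the PFA lamina. LBR had 1331 and 1057 nuclear, 728 and 542 cytosolic, 1856 and 1058 native and 1047 and 398 PFA counts, so it was present in all libraries. OMP, the olfactory marker protein, had 10 and 8 nuclear counts, 0 and 0 cytosolic, 1 and 6 native and 0 and 2 PFA counts. CNGB1, a subunit of the olfactory cation channel, had 2 and 5 nuclear, 0 and 0 cytosolic, 3 and 0 native and 0 and 2 PFA counts.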

How the data were processed

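The authors deposited raw read counts per gene symbol for 8 HEK293FT RNA libraries, made with featureCounts 1.5.2 on hg19 RefFlat, per the file headers. Their command set counting without regard to strand, with reads on several genes assigned to each, and has no option for reads that map to several places, so counts of near-identical receptors are uncertain. Per the submitters' processing notes, TopHat2 2.1.1 and Bowtie2 2.3.2 were among the tools. The header of cytosolic replicate 1 carries the output name of nuclear replicate 1. In log2 CPM it lay closer to cytosolic replicate 2 (correlation 0.968) than to nuclear replicate 1 (0.790), so the label was followed. The authors' domain lists hold intervals without scores, and their caller settings are not given in the sources used here. Total counts ran from 2321291 to 8557777, and 3 counts, the floor, equal 0.351 to 1.29 CPM.

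Genes were tested with edgeR 4.0.16 (R 4.3.3): filterByExpr, TMM, quasi-likelihood test, 1 fit of 8 libraries with 1 coefficient per group, 6 contrasts, Benjamini-Hochberg adjustment over all genes tested, call at 0.05. The same code was tested on simulated data. DESeq2 1.42.0 was an alternative. Others were size factors, total counts, upper-quartile factors, filters, a replicate block, fewer libraries, domain edges and overlap rules, and the gap that joins runs. Counts and ratios have exact intervals at 95%. Named were receptors called in any contrast, the 10 with the most counts, and the first, last and most counted gene of each larger run (5 or more). Also named were genes from lists fixed by name, of 7 receptors and 34 pathway symbols. Any further gene was named with its values in view. The receptor set, lists and tests were chosen with earlier results of these data known. Of red cell markers, ALAS2 reached 21 and KLF1 6 counts in a library, and 1 marker is not reported here. Of colon markers, EPCAM, CDH1, KRT20, VIL1 and CDX2 all had counts in HEK293FT. No HCT116 RNA was analysed here.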

Additional observations from a re-analysis of the deposited data

How the results depend on the processing

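Where the filter was kept, 90 recounts of called receptors held no receptor to test and say nothing. Of the other 84, 79 gave 0. Among these 79 are the DESeq2 recounts outside nuclear against cytosolic, where no receptor had an adjusted p. No call was possible in those. Nuclear against cytosolic, 1 receptor (OR52W1) was called with the filter removed, and also with the filter removed and in addition upper-quartile factors, only the 4 libraries compared, or 1 PFA library left out (0 to 1 with a library left out); the cause was not tested. The remaining planned recomputations numbered 48, of which 45 stayed within the limits set. For sums the limit was the SD between the 2 libraries of a group. Leaving out 1 of the 2 cannot exceed that limit, so for those sums it tested nothing. A minimum of more than 3 counts left 5 receptors, by construction, and leaving out libraries gave 30 to 42. The cytosolic sum was 0.378 CPM with total counts; the cause was not tested. Leaving out a library gave sums of 4.46 to 8.08 CPM for nuclear, 0.400 to 0.422 for cytosolic, 1.18 to 2.08 for native lamina and 0.553 to 5.51 for PFA lamina. With the replicate number as a block and no filter 0 of 42 receptors were called (OR52W1 adjusted p 0.0828), and with the filter none was tested. Deviations of same-numbered samples correlated at 0.280 for nuclear and cytosolic, 0.158 for nuclear and native and 0.321 for native and PFA, and at -0.0674 to 0.0949 for the other pairs of groups. The labels do not say what the number marks, so no pairing was assumed. The block moved the calls of native against nuclear to 961 higher and 885 lower. Trimming domains by 100 kb left 105, 105 and 103 receptors inside in G1, S and G2, and extending them gave 114, 114 and 113. A gap of 250 kb gave 13 runs and 1 Mb gave 9, with 2 mixed runs each. Counts of 6 or fewer per receptor and library limit every statement on single receptors. The 4 replicate pairs give no spread beyond 2 values.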
